A study of Arabidopsis thaliana with 8 samples.

Results

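The genes described here are the cytochrome P450 genes of Arabidopsis thaliana. They were chosen by symbol: protein-coding genes of the RefSeq TAIR10.1 gene table whose symbol is CYP followed by a family number, a letter and a further number. The rule found 219 genes among 27444 protein-coding genes on chromosomes 1 to 5, with 46 on chromosome 1, 33 on chromosome 2, 59 on chromosome 3, 42 on chromosome 4 and 39 on chromosome 5. A further 6 genes with such a symbol are transcribed pseudogenes and were left out, and 15 P450 genes listed under another symbol, such as DWF4 and PAD3, were counted separately. The same rule asks for the windows at these genes, so their counts are given as a description with no test.

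Cytochromes P450 are heme enzymes that insert an oxygen atom from molecular oxygen into their substrates. In plants most are anchored in the membrane of the endoplasmic reticulum and receive electrons from NADPH-dependent reductases, encoded in Arabidopsis by ATR1 and ATR2. They make and inactivate hormones, build lignin, cutin, suberin and pollen wall monomers, and produce defence compounds such as glucosinolates, camalexin and terpenes. The family grew by repeated tandem duplication, so many members lie side by side on the chromosome.

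The study asked which DNA is bound by ALOG proteins, a family of plant transcription factors, with the ampDAP-seq assay. A tagged protein synthesised in vitro (here with the TnT system, per the labels) is incubated with amplified, bare genomic DNA, and the DNA it holds back is sequenced. The DNA of every sample came from 2-week-old Arabidopsis seedlings, with no genotype or treatment named in the labels. Only the protein differed: 3 from Arabidopsis (LSH1, LSH2, LSH3), 1 from rice (G1), 1 from tomato (TMF) and 2 from the liverwort Marchantia (LOS1, LOS2), the species being background knowledge.

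Each protein had 1 list of bound windows, the consensus of 3 replicates, and each window was 200 bp wide. The lists held 13758 windows for LSH1, 21486 for LSH2, 17263 for LSH3, 6902 for G1, 14053 for LOS1, 29555 for LOS2 and 13667 for TMF. The input, the remaining one of the 8 samples, was not analysed here. No spread between replicates can be given, and the read depth behind a window is unknown. The 95% Wilson intervals below cover counting error only, and treat genes as independent although tandem neighbours can share a window. Amplified DNA carries neither chromatin nor methylation, so a window says nothing about whether the gene responds to the protein in a plant.

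P450 genes had windows less often than protein-coding genes at large, for each of the 7 proteins. A gene was counted when a window centre lay in the gene body or within 2000 bp of either end. LOS2 windows lay at 155 of the 219 P450 genes, 70.8% (64.4 to 76.4%), against 77.6% of all protein-coding genes. LSH2 windows lay at 117, 53.4% (46.8 to 59.9%), against 67.9%, and LSH3 windows at 100, 45.7% (39.2 to 52.3%), against 59.7%. These were the 3 lists with the most windows and also the 3 that reached the most P450 genes. LSH1 reached 93 P450 genes, 42.5% (36.1 to 49.1%), against 53.3% of all genes. LOS1 reached 89, 40.6% (34.3 to 47.3%), against 53.6%, and TMF 87, 39.7% (33.5 to 46.3%), against 52.8%. G1, the shortest list, reached 52, 23.7% (18.6 to 29.8%), against 32.7%.

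The shares were also lower than those of genes of like length. P450 genes had a median length of 2054 bp (shortest 1120 bp, longest 5826 bp), close to the median of 2078 bp for all protein-coding genes. Each P450 gene was set beside the 200 other protein-coding genes nearest to it in length, and the share of those with a window was averaged. This length-standardised share was 79.5% for LOS2, 69.1% for LSH2, 60.9% for LSH3, 54.9% for LSH1, 54.5% for LOS1, 53.7% for TMF and 33.1% for G1. It lay above the Wilson interval of the P450 share in every list. The ratio of the P450 share to it ran from 0.717 for G1 to 0.890 for LOS2. With 1 member of each tandem run kept, 131 genes, the LOS2 share was 74.0% against 79.6%, a smaller gap. The gap was also smaller for LSH1, and larger for LSH2, LSH3, G1, LOS1 and TMF. No interval was taken for these 131 genes.

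**Figure D1:**
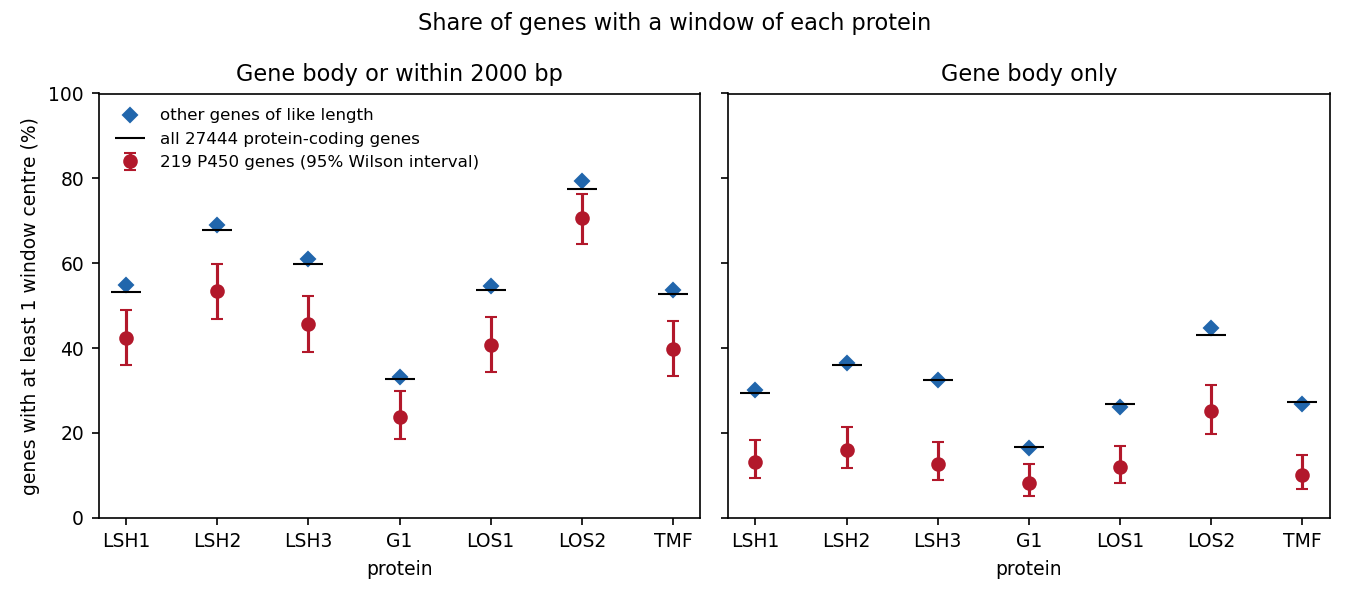
Share of genes in percent (vertical axis) with at least 1 window centre of each protein (horizontal axis), in the gene body or within 2000 bp (left) and in the gene body alone (right). Red points with 95% Wilson intervals are the 219 P450 genes, blue diamonds other genes of like length, and black bars all 27444 protein-coding genes; the red points lie lowest in each column. In gene bodies the distance to the blue diamonds is larger than with flanks in every list but G1.

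The lower share arose mostly inside the genes. In the gene body, LSH1 windows were found in 29 P450 genes, 13.2% (9.38 to 18.4%), against 29.3% of all genes. The shares were 16.0% (11.7 to 21.4%) for LSH2 against 36.1%, 12.8% (8.996 to 17.9%) for LSH3 against 32.6%, and 8.22% (5.26 to 12.6%) for G1 against 16.7%. For LOS1 the share was 11.9% (8.23 to 16.8%) against 26.9%, for LOS2 25.1% (19.8 to 31.3%) against 43.1%, and for TMF 10.05% (6.73 to 14.7%) against 27.2%. Set against genes of like length, the body shares of P450 genes were between 0.374 times (TMF) and 0.561 times (LOS2) as high. In the flanks alone the ratios were 0.842 (G1) to 0.967 (LOS2), and each length-standardised share lay within the P450 interval. For LSH3, as an example, flank windows occurred at 38.8% (32.6 to 45.4%) of P450 genes and at 43.6% of genes of like length.

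Taken over the 7 proteins, 71 P450 genes, 32.4% (26.6 to 38.9%), had a window of any protein in the gene body. The figure was 55.1% for all genes and 59.6% for genes of like length. Windows only in the flanks occurred at 100 P450 genes, 45.7%, against 31.5% of all genes and 29.3% of genes of like length. The difference held across the length range of the family. Of the 73 shortest P450 genes 23.3% had a body window, against 42.5% of other genes in the same range of length. For the 73 of middle length the shares were 32.9% and 58.9%, and for the 73 longest 41.1% and 76.8%.

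Per kilobase, P450 gene bodies held 0.481 window centres of the 7 lists together, and the bodies of all genes 1.29, a ratio of 0.374. The ratio was lowest for LSH3, 0.302, and highest for G1, 0.437. In the flanks the density was 0.880 per kb at P450 genes and 0.990 at all genes, with ratios of 0.835 for G1 to 0.960 for LOS2. Counting a window once for each gene it lay at gave 1008 at P450 genes. Of these 23.5% lay in the gene body, against 43.7% at all genes. A window in the body of 1 gene can count again in the flank of its neighbour. Of the distinct windows near P450 genes, 24.2% (TMF) to 37.5% (G1) lay in a P450 gene body. For genes of like length the body density was 1.18 per kb, as a mean over single genes rather than a pooled value.

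The profile across the gene ends was taken in steps of 250 bp. Outside the genes the P450 density lay below that of all genes in 6 of 8 steps, for example at 0.731 against 0.891 windows per kb from 250 to 500 bp and at 0.712 against 1.01 from 750 to 1000 bp. It lay above in the other 2, at 0.959 against 0.817 in the 250 bp next to the gene and at 1.14 against 1.06 from 1000 to 1250 bp. In the first 250 bp inside it was 0.722 per kb, against 0.881. From 250 to 500 bp inside it fell to 0.420, from 500 to 750 bp it was 0.449 and from 750 to 1000 bp 0.511. Over the same 3 steps all genes rose from 1.04 to 1.28 and 1.47 windows per kb. Shorter genes do not reach the deeper steps, and the profile was not matched for length. The bases counted fell from 12381429 to 8409504 for all genes and from 109500 to 92046 for P450 genes. The gene table used here has no strand and no exons, so starts and ends of genes, and exons and introns, were not separated. Base composition and the letters under the windows were not used here, and their part in the lower density was not tested.

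**Figure D2:**
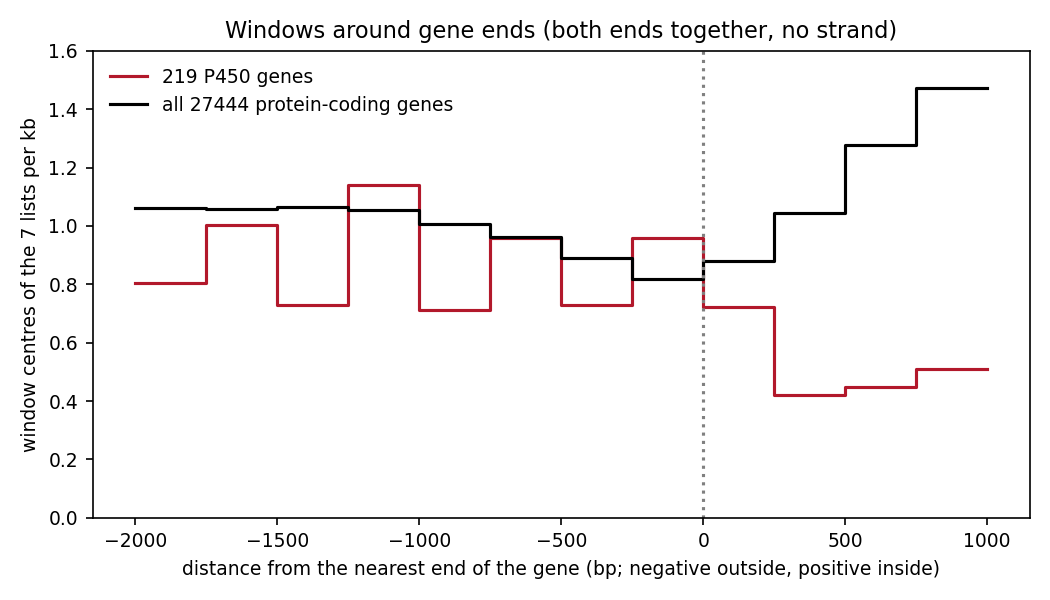
Window centres of the 7 lists per kb (vertical axis) in steps of 250 bp by distance from the nearest gene end in bp (horizontal axis; negative outside, positive inside), for 219 P450 genes (red) and all 27444 protein-coding genes (black). Outside the gene the red line runs between 0.712 and 1.14 per kb, below the black one in 6 of 8 steps, and inside it stays at 0.722 or below while the black line climbs to 1.47. Shorter genes drop out of the deeper steps inside, and lengths are not matched.

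The sources used here do not name the build of the windows, so all windows were also counted after a shift. Of all windows 71.1% had their centre in a protein-coding gene, and 67.4% after a shift of 1000 bp in either direction. At P450 genes the shift acted the other way. The 237 body windows became 344 with the windows moved 1000 bp down and 274 with them moved 1000 bp up the chromosome. Flanks of P450 genes held more windows per kb than their bodies, so a shift raises the body count by itself. It therefore cannot check the positions at P450 genes.

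A P450 gene carried a median of 3 windows over the 7 lists, with quartiles of 1 and 7 and a maximum of 24, while the median over all genes was 6. The median number of proteins with a window was 3 for P450 genes and 5 for all genes. No window of any protein was found at 48 P450 genes, 21.9% (16.9 to 27.9%), against 13.4% of all genes and 11.1% of genes of like length. Windows of all 7 proteins were found at 35 P450 genes, 16.0% (11.7 to 21.4%), against 22.6% of all genes and 22.2% of genes of like length. Counting gene bodies alone, 67.6% of P450 genes had none, against 44.9% of all genes, and 7 P450 genes (3.20%) had all 7 proteins, against 9.51%. Those 7 were CYP89A7, CYP72A15, CYP705A20, CYP71B34, CYP81D5, CYP93D1 and CYP714A2.

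Between these ends, 31 P450 genes had windows of 1 protein, 27 of 2, 17 of 3, 21 of 4, 12 of 5 and 28 of 6. The single protein was LOS2 at 25 of the 31 genes, LSH1 at 4 and LSH2 at 2. No P450 gene had windows of LSH3, G1, LOS1 or TMF alone. Genes with 1 protein were 14.2% of P450 genes and 12.0% of all genes. How the single proteins divide among all genes was not counted, and LOS2, the longest list, reached 77.6% of all genes. The limit of 2000 bp left out some near cases: the nearest window of 18 P450 genes lay between 1500 and 2000 bp from the gene, and 10 more genes had theirs between 2000 and 2500 bp.

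**Figure D3:**
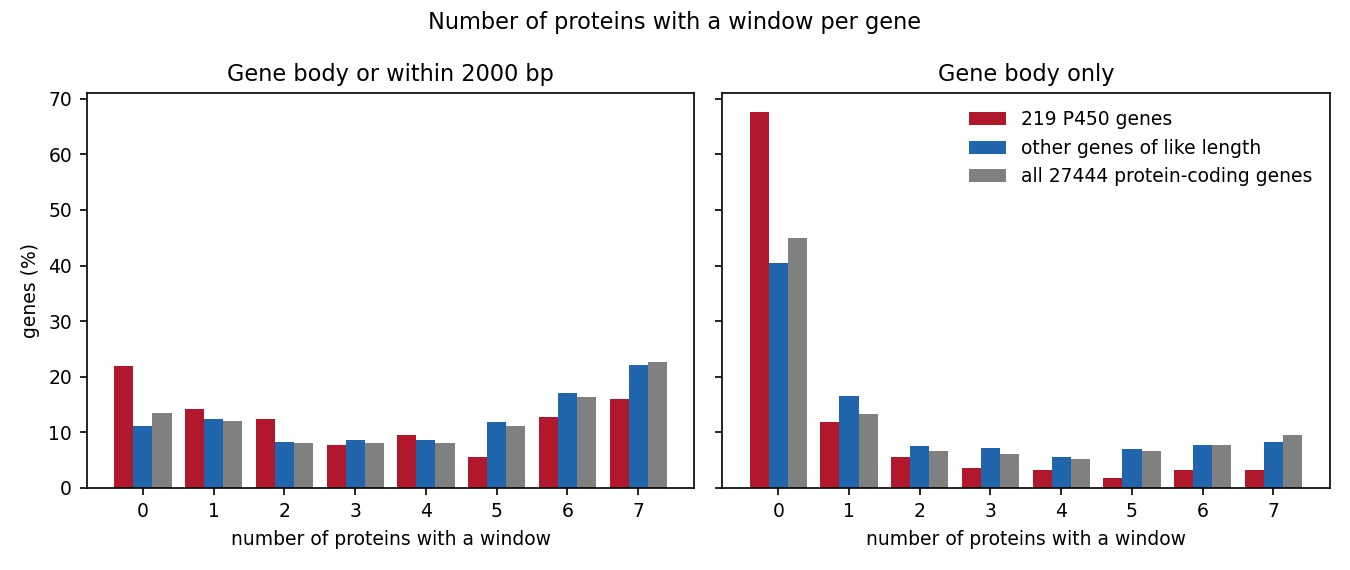
Share of genes in percent (vertical axis) by the number of proteins with a window (horizontal axis), in the gene body or within 2000 bp (left) and in the gene body alone (right), for 219 P450 genes (red), other genes of like length (blue) and all protein-coding genes (grey). On the left the red bar is the highest of its group at 0 proteins (21.9%) and the lowest at 7 (16.0%), and on the right 67.6% of P450 genes have no protein in the body.

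Overlapping windows of the 7 lists were merged into regions, and 316 regions lay in or within 2000 bp of a P450 gene. Of these 93 were in the body of a P450 gene, 93 in the body of a neighbouring gene of another kind and 130 between genes. A flank window of a P450 gene can therefore belong as well to its neighbour. The place differed by list. Between genes lay 27.1% of the distinct G1 windows near P450 genes (13 of 48), 34.0% of those of LSH1, 46.4% of those of LOS2 and 49.0% of those of LSH2. The share between genes was not counted for whole lists. At all genes, the share of windows in the body rather than the flanks was likewise higher for G1 (46.5%) and LSH1 (46.2%) than for LSH2 (42.4%) and LOS2 (41.4%).

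Regions of a single list made up 151 of the 316 (47.8%), against 40.4% of all 39850 regions of the genome. LOS2 alone held 105 of them (33.2% of the regions near P450 genes, 28.3% of all regions). Regions of all 7 lists numbered 26, or 8.23% near P450 genes and 7.84% of all regions, a small difference. These 26 regions reached 32 P450 genes, and 6 of them lay in a P450 gene body, 9 in another gene's body and 11 between genes.

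Inside P450 genes, LSH1 was the list whose own regions differed most, in percentage points, from their share in all gene bodies. Regions of LSH1 alone were 14 of the 93 regions in P450 gene bodies, 15.1%, against 6.06% of the 27786 regions in the bodies of all protein-coding genes. They lay in 11 P450 genes: CYP78A5, CYP722A1, CYP89A2, CYP89A3, CYP89A9, CYP94C1, CYP705A1, CYP705A5, CYP71A28, CYP81F3 and CYP81F4. The 3 CYP89A genes held 2 each. One of these is CYP89A9, which acts in chlorophyll breakdown; its body carried LSH1 windows on chromosome 3 at 825187 to 825386 and at 825935 to 826134. LSH2 alone, in contrast, had no region in a P450 gene body, while it made up 2.70% of regions in all gene bodies. These counts are small, and they were singled out after their values were seen.

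The P450 genes were next grouped by the pathways in which their enzymes act, with 78 of the 219 placed in 11 groups. The groups are small, and their counts are descriptions to be read against the shares for all genes given above.

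Every gene with a P450 symbol in the 5 hormone groups had a window of at least 1 protein. Among all protein-coding genes only 13.4% had none, so this differs little for groups so small. BR6OX2 and BAS1, brassinosteroid genes under another symbol, had no window. In the brassinosteroid group only CYP90D1 and CYP72C1 carry a P450 symbol. CYP90D1 (AT3G13730), a C-23 hydroxylase of brassinosteroid synthesis, had 4 LOS2 windows and 1 window of each other protein, all in its flanks. A region of all 7 proteins lay on chromosome 3 at 4496632 to 4496868, inside the neighbouring gene PRA8. CYP72C1 (AT1G17060), which lowers brassinosteroid levels, had 2 LSH2 windows and 1 LSH3 window and none of the other proteins. CYP724A1, a relative outside the group and named after its values were seen, had a region of all 7 proteins between genes on chromosome 5 at 4642465 to 4642675.

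The CYP707A genes encode the abscisic acid 8'-hydroxylases that break the hormone down. Of the 4, 3 had body windows, against 55.1% of all genes. CYP707A3 (AT5G45340) had 13 windows of every protein but G1: 3 of LSH2, 4 of LOS2, 2 each of LSH3 and TMF, and 1 each of LSH1 and LOS1. CYP707A1 (AT4G19230) had a single region, in its body on chromosome 4 at 10522052 to 10522256, held by LSH2, LSH3 and LOS2. The same 3 proteins had windows at CYP707A2 (AT2G29090), which acts in seeds, with 3 of its 5 windows in the body. CYP707A4 had 1 LOS2 window. LSH2 and LOS2 shared 3 of the 4 genes, and no G1 window lay at any of them. Among all genes LSH2 reached 67.9%, LOS2 77.6% and G1 32.7%. For only 4 genes these counts differ little from those shares.

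In the gibberellin group, CYP714A2 (AT5G24900), a gibberellin-modifying enzyme, had body windows of all 7 proteins that did not all coincide. The G1 window lay on chromosome 5 at 8564562 to 8564761, and the windows of the other proteins merged at 8566456 to 8566735. Its tandem neighbour CYP714A1 (AT5G24910) had 12 windows of 6 proteins, among them 4 LOS2 and 3 LOS1 windows, and had no G1 window. CYP88A3 (AT1G05160), an ent-kaurenoic acid oxidase of gibberellin synthesis, had 14 windows of the same 6 proteins, all in its flanks and all inside the bodies of AT1G05150 and AT1G05170.

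CYP711A1 (AT2G26170), known as MAX1 and required for strigolactone synthesis, had 16 windows and none in its body. LSH2, LOS1, LOS2 and TMF had 3 windows each, LSH1 had 2, and LSH3 and G1 had 1 each. They fell in 3 neighbouring regions inside IQD6, and the region on chromosome 2 at 11144615 to 11144825 was held by all 7 lists. The trans-zeatin hydroxylases of cytokinin synthesis, CYP735A1 and CYP735A2, had 4 windows each, 1 per protein, and both shared LSH2, LSH3 and LOS2.

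The 4 CYP94 genes of jasmonate inactivation had a median of 6.5 proteins. CYP94B1 (AT5G63450) and CYP94B2 (AT3G01900) each had a flank region of all 7 proteins, on chromosome 5 at 25408544 to 25408758 and on chromosome 3 at 311129 to 311347. CYP94B3 (AT3G48520), which hydroxylates jasmonoyl-isoleucine as does CYP94B1, had 16 windows, all between genes and none of LSH1 or G1. Of these, LSH2, LSH3, LOS1 and TMF had 3 each and LOS2 4. They formed 3 regions of the same 5 proteins and 1 of LOS2 alone. CYP94C1 (AT2G27690), which carboxylates the hydroxylated hormone, had 13 windows of every protein but G1, 4 of them in the body.

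The 16 genes of glucosinolate and camalexin synthesis had few TMF windows. TMF had a window at 1 of them, CYP83B1, while LOS2 had windows at 12, LSH2 at 11, LSH3 at 9, LSH1 at 6, LOS1 at 4 and G1 at 2. For comparison, TMF reached 87 of the 219 P450 genes and 52.8% of all genes. LOS1 and G1, which reached 53.6% and 32.7% of all genes, were also low in this group. The TMF count is 1 among those of 11 groups and 7 proteins. CYP79F1 (AT1G16410), which starts aliphatic glucosinolates from elongated methionine, had 7 windows, all in its body. A region on chromosome 1 at 5608721 to 5608936 held LSH1, LSH2, LSH3 and G1, and another at 5611946 to 5612154 held LSH2, LOS1 and LOS2. CYP79F2 (AT1G16400), its tandem copy, was reached only through the first of these. CYP79B3 (AT2G22330), which turns tryptophan into an aldoxime, had 6 windows of LSH2, LSH3, LOS1 and LOS2. CYP83B1 (AT4G31500), which acts after it on indole glucosinolates, had 1 region between genes on chromosome 4 at 15275800 to 15276004, with LSH1, LSH2, LSH3, LOS2 and TMF. CYP83A1, its counterpart for aliphatic glucosinolates, had no window, and neither did CYP79C2. No gene of the group had windows of all 7 proteins.

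Of the 4 phenylpropanoid genes with a P450 symbol, none had a body window. CYP98A3 (AT2G40890), a hydroxylase of lignin synthesis, had 8 windows of every protein but G1. CYP98A9 (AT1G74550), which makes pollen phenolamides, had 7 windows, 1 of each protein, in 1 region on chromosome 1 at 28019397 to 28019634 within NRP1. CYP98A8, its tandem partner in the same pathway, had none. CYP84A4 had 3 windows, all of LOS2.

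The CYP78A genes promote organ and seed growth, and their windows varied from gene to gene. CYP78A5 (AT1G13710), known as KLUH, was 1 of 3 P450 genes with 2 regions of all 7 proteins, beside CYP89A6 and CYP705A21. It had 16 windows: 3 each of LSH1 and LOS2, and 2 each of LSH2, LSH3, G1, LOS1 and TMF. Each protein had a window in both of 2 adjoining regions between genes, situated on chromosome 1 at 4705888 to 4706131 and at 4706314 to 4706530. Outside them lay an LSH1 window in the gene body at 4704505 to 4704704 and a LOS2 window at 4701415 to 4701614 on the other side of the gene. CYP78A8 (AT1G01190) had 11 flank windows of all 7 proteins. CYP78A6 (AT2G46660), which affects seed size, had 10 flank windows, 4 of them of LSH2. CYP78A9, of a like role, had 3 windows of LSH2 and LOS2, and CYP78A7 had none. The group thus ran from all 7 proteins to none, with 1 body window among its 45 windows.

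Among 16 genes of fatty acid, cutin, suberin, wax and pollen wall metabolism, LOS2 reached 13 and each other protein 8 or fewer. LOS2, the longest list, also reached 77.6% of all protein-coding genes, a share near that of this group. CYP77A4 (AT5G04660), a fatty acid epoxidase, and CYP703A2 (AT1G01280), a lauric acid hydroxylase of the pollen wall, each had 1 flank region of all 7 proteins. CYP86A2 (AT4G00360), a cutin enzyme, had 6 LOS2 windows, the most of any P450 gene for that protein, beside 2 of LSH3 and 1 each of LSH2 and LOS1. CYP86A8 (AT2G45970), known as LACERATA, had 3 LSH1, 2 LSH3, 2 TMF and 1 each of LSH2, LOS1 and LOS2 windows, all inside the body of PIP1B. CYP86C2 had 1 LOS2 window, and CYP86A7 none.

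Sterol and carotenoid genes had body windows in 4 of 7 cases, 57.1%, near the 55.1% of all protein-coding genes. CYP97A3 (AT1G31800), a carotene hydroxylase, had 13 windows of every protein but G1, and 9 of them lay in its body. CYP51G1 (AT1G11680), the sterol 14-demethylase, had 12 windows of every protein but LOS1, with a body region on chromosome 1 at 3938801 to 3939014 of LSH1, LSH2, LSH3, G1 and TMF. CYP710A2 (AT2G34490), a sterol C-22 desaturase, had 6 windows of 5 proteins. Its tandem neighbour CYP710A1, and CYP710A3, had none.

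In the terpene group of 13 genes, 4 had windows of all 7 proteins and 3 had none, against 22.6% and 13.4% of all genes. The 4 were CYP71A16 and the tandem neighbours CYP76C1, CYP76C2 and CYP76C3. CYP76C1 and CYP76C2 shared their region of all 7 proteins. CYP71A16 (AT5G42590), the marneral oxidase, had 21 windows, the second highest number of any P450 gene: 4 each of LSH2, LOS1 and LOS2, 3 each of LSH3 and TMF, 2 of LSH1 and 1 of G1. Of these, 9 lay in its body and 12 between genes, where a region of all 7 proteins lay on chromosome 5 at 17035138 to 17035369. CYP76C1 (AT2G45560) and CYP76C3 (AT2G45580), which oxidise linalool, had 11 flank windows each and none in the body. CYP702A5 and CYP702A6 had none.

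**Figure D4:**
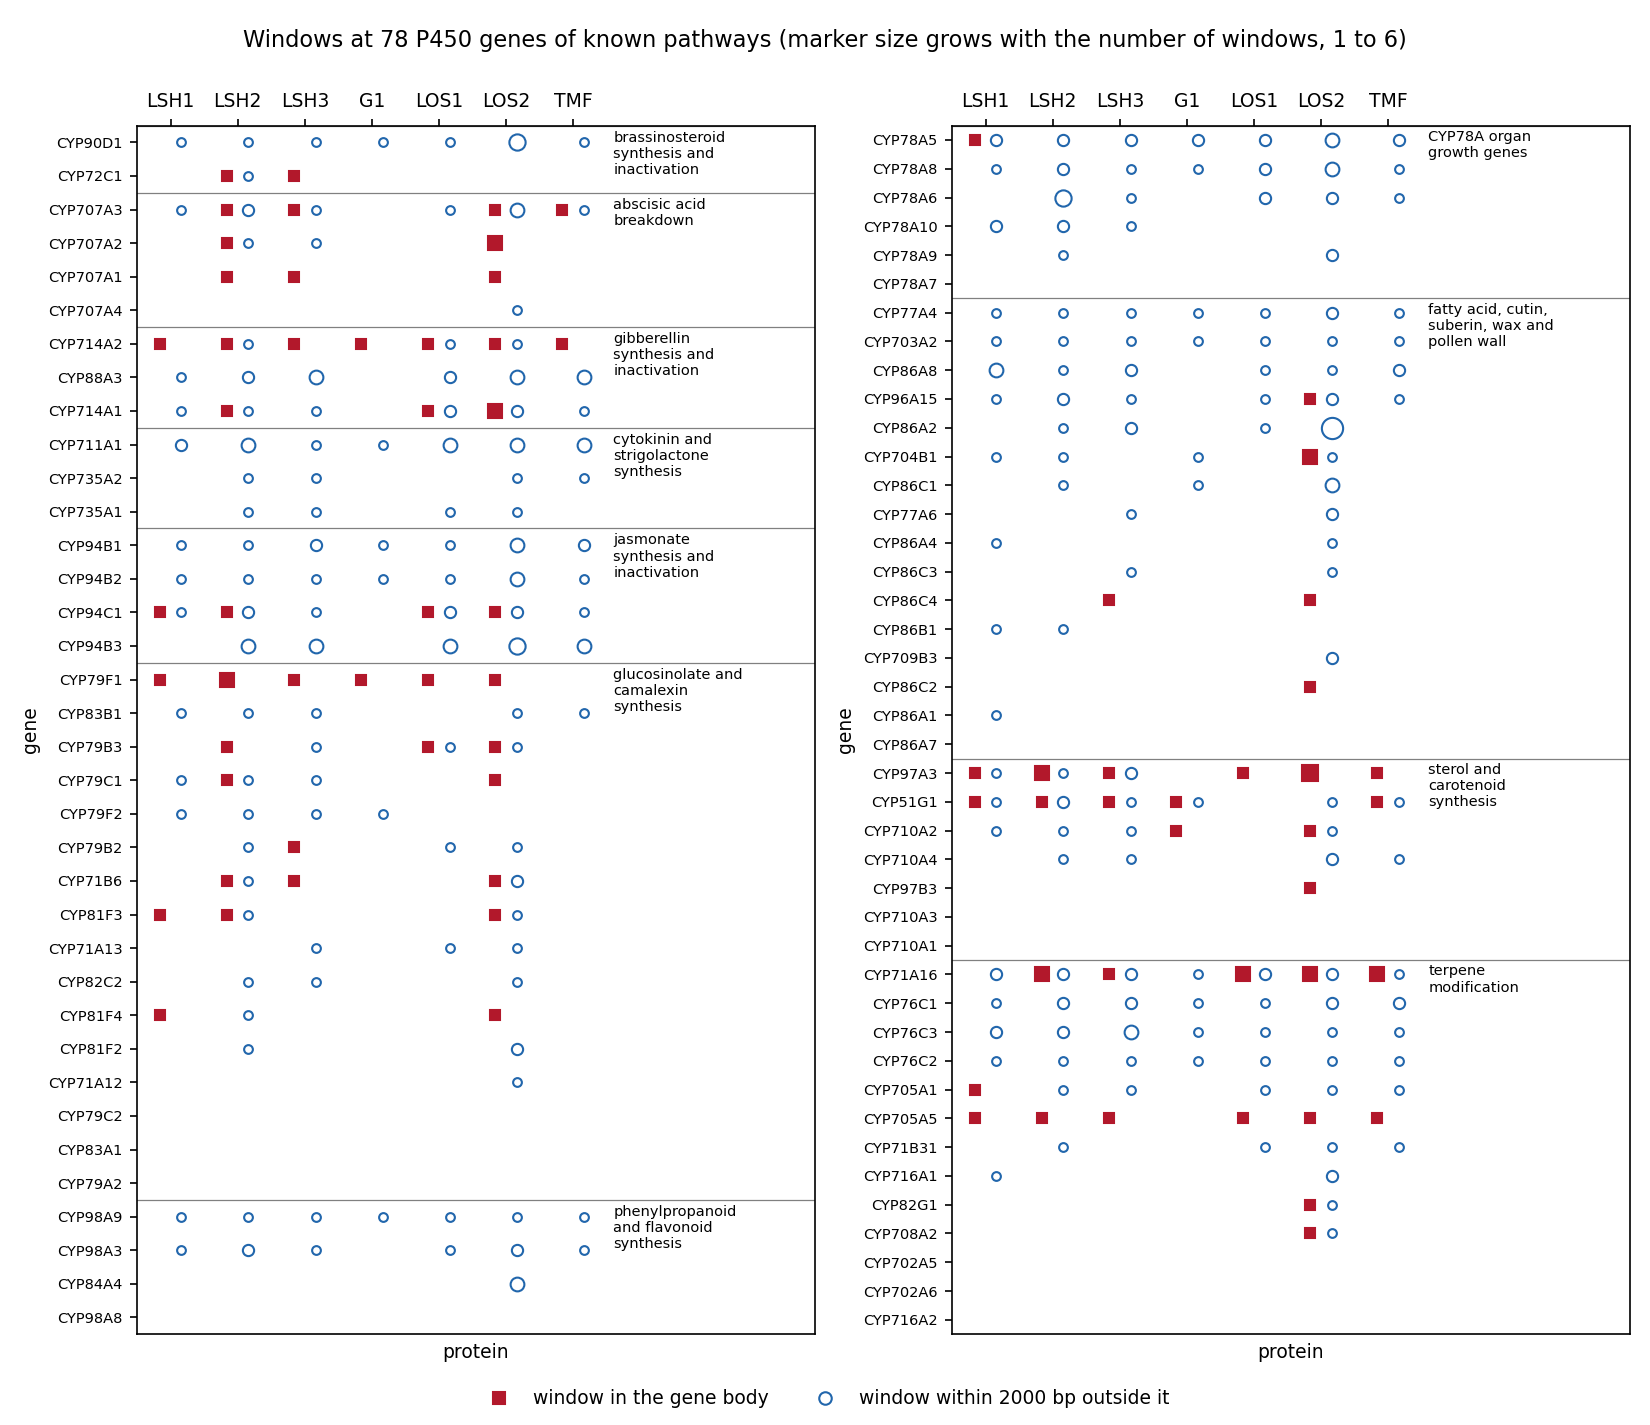
Windows at 78 P450 genes in 11 pathway groups (vertical axis, gene names) for each of the 7 proteins (horizontal axis). Red squares are windows in the gene body and open blue circles windows within 2000 bp outside it, and marker size grows with the number of windows from 1 to 6. Open circles prevail, and only 1 gene of the glucosinolate and camalexin group, CYP83B1, has a TMF marker.

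The remaining 141 P450 genes, in none of the groups, had a median of 2 proteins. Among them 37 had no window and 21 had windows of all 7. The longest P450 genes without any window were CYP708A3 with 3809 bp, CYP702A5 with 3163 bp, CYP702A6 with 3030 bp, CYP72A13 with 2831 bp and CYP72A11 with 2564 bp.

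By family, the CYP89 genes had the most windows per kb of gene body. Their total with flanks was raised by sharing: of 16 distinct windows at the 3 genes from CYP89A7 to CYP89A5, 15 were counted for 2 or more. Windows of all 7 proteins lay at 4 of the 6, none was without a window, and their bodies held 1.42 windows per kb, the only family of 5 or more members above the 1.29 per kb of all gene bodies. CYP89A3 (AT5G61320) had 4 LSH1 windows, 3 of them in the body, the most of any P450 gene for LSH1, and 2 of every other protein. CYP89A6 (AT1G64940) had 15 windows in its flanks, and on chromosome 1 all 7 lists shared 2 regions there, at 24121937 to 24122154 within its neighbour CYP89A7 and at 24125950 to 24126173 between genes. CYP89A5 was reached by the second of these as well, so that 2 regions supplied 3 of the 4 genes with windows of all 7 proteins.

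The largest family, CYP71 with 48 genes, had a median of 1.5 proteins, with 15 genes at none, 6 at all 7 and 10 with a body window. CYP705 with 24 genes had a median of 4.5 proteins, and 12 of them had a body window. CYP81 with 16 genes had a median of 2.5, and CYP96 with 12 genes a median of 1 with no gene at all 7 and 1 with a body window. None of the 7 CYP79 genes, which make aldoximes from amino acids, had a TMF window, against 52.8% of all genes with one. All 7 belong to the glucosinolate and camalexin group, so this repeats part of the TMF count given there. Of the 8 CYP76 genes 4 had windows of all 7 proteins, against 22.6% of all genes, but only 1 had a body window. These 4 are tandem neighbours, and 11 of the 29 distinct windows of their run were counted for 2 or more genes. CYP94 with 6 genes had a median of 5.5 proteins and no gene without a window. The 49 genes of families with under 5 members had a median of 4.

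Tandem neighbours made up 125 of the 219 genes, in 37 runs of at least 2 P450 genes with no more than 1 other protein-coding gene between neighbours. Neighbours in runs shared some of their windows. Of 406 distinct windows at genes in runs, 134 (33.0%) were counted for 2 or more P450 genes. Genes in runs had a body window in 31.2% of cases and a body density of 0.521 per kb. For the 94 genes outside runs the values were 34.0% and 0.430 per kb, so both parts of the family lay below the 55.1% and 1.29 per kb of all genes. No window was found at 26.4% of genes in runs and at 16.0% of those outside.

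Runs differed widely, even within a family on 1 chromosome. The run of 7 genes from CYP705A15 to CYP705A23 had 29 windows, 20 of them in gene bodies, and 4 genes with all 7 proteins. There, all 7 lists shared a region in CYP705A20, found on chromosome 3 at 7021339 to 7021573, and another at 7025798 to 7026095, centred in CYP705A21 (AT3G20120). The latter gene had 15 windows in all. The run of 7 genes from CYP71B25 to CYP71B37 had 42 windows, 23 of them in bodies. CYP71B37 (AT3G26330) had the most windows of any P450 gene, 24: 5 each of LSH3 and LOS2, 4 each of LSH2 and LOS1, 3 of TMF, 2 of LSH1 and 1 of G1. In the same run, CYP71B34 (AT3G26300) had a body region common to the 7 lists at 9640117 to 9640320, which also lay in the flank of CYP71B35 (AT3G26310). CYP71B35 in turn had a body region of every protein but G1 at 9642011 to 9642216.

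By contrast, the 9 genes from CYP71B16 to CYP71B24 had 27 windows and none of them in a gene body, and no G1 window. The 6 genes from CYP71A26 to CYP71A21 had a single window between them, of LOS2, so 5 of the 6 had none. In the run of 8 genes from CYP72A7 to CYP72A15, 4 genes had no window and 2 had all 7 proteins. All 7 windows of the run of 6 genes from CYP81H1 to CYP81D8 lay in CYP81D5, in 1 region on chromosome 4 at 17559500 to 17559795. In the run from CYP76C4 to CYP76C3 all 4 genes had windows of all 7 proteins. They came from 29 distinct windows outside the bodies of these genes, 11 of them counted for 2 or more genes. Neighbours in such runs can be nearly identical in sequence. How reads were placed between near-identical copies is not given in the sources used here, and its part in the counts of single copies was not tested.

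**Figure D5:**
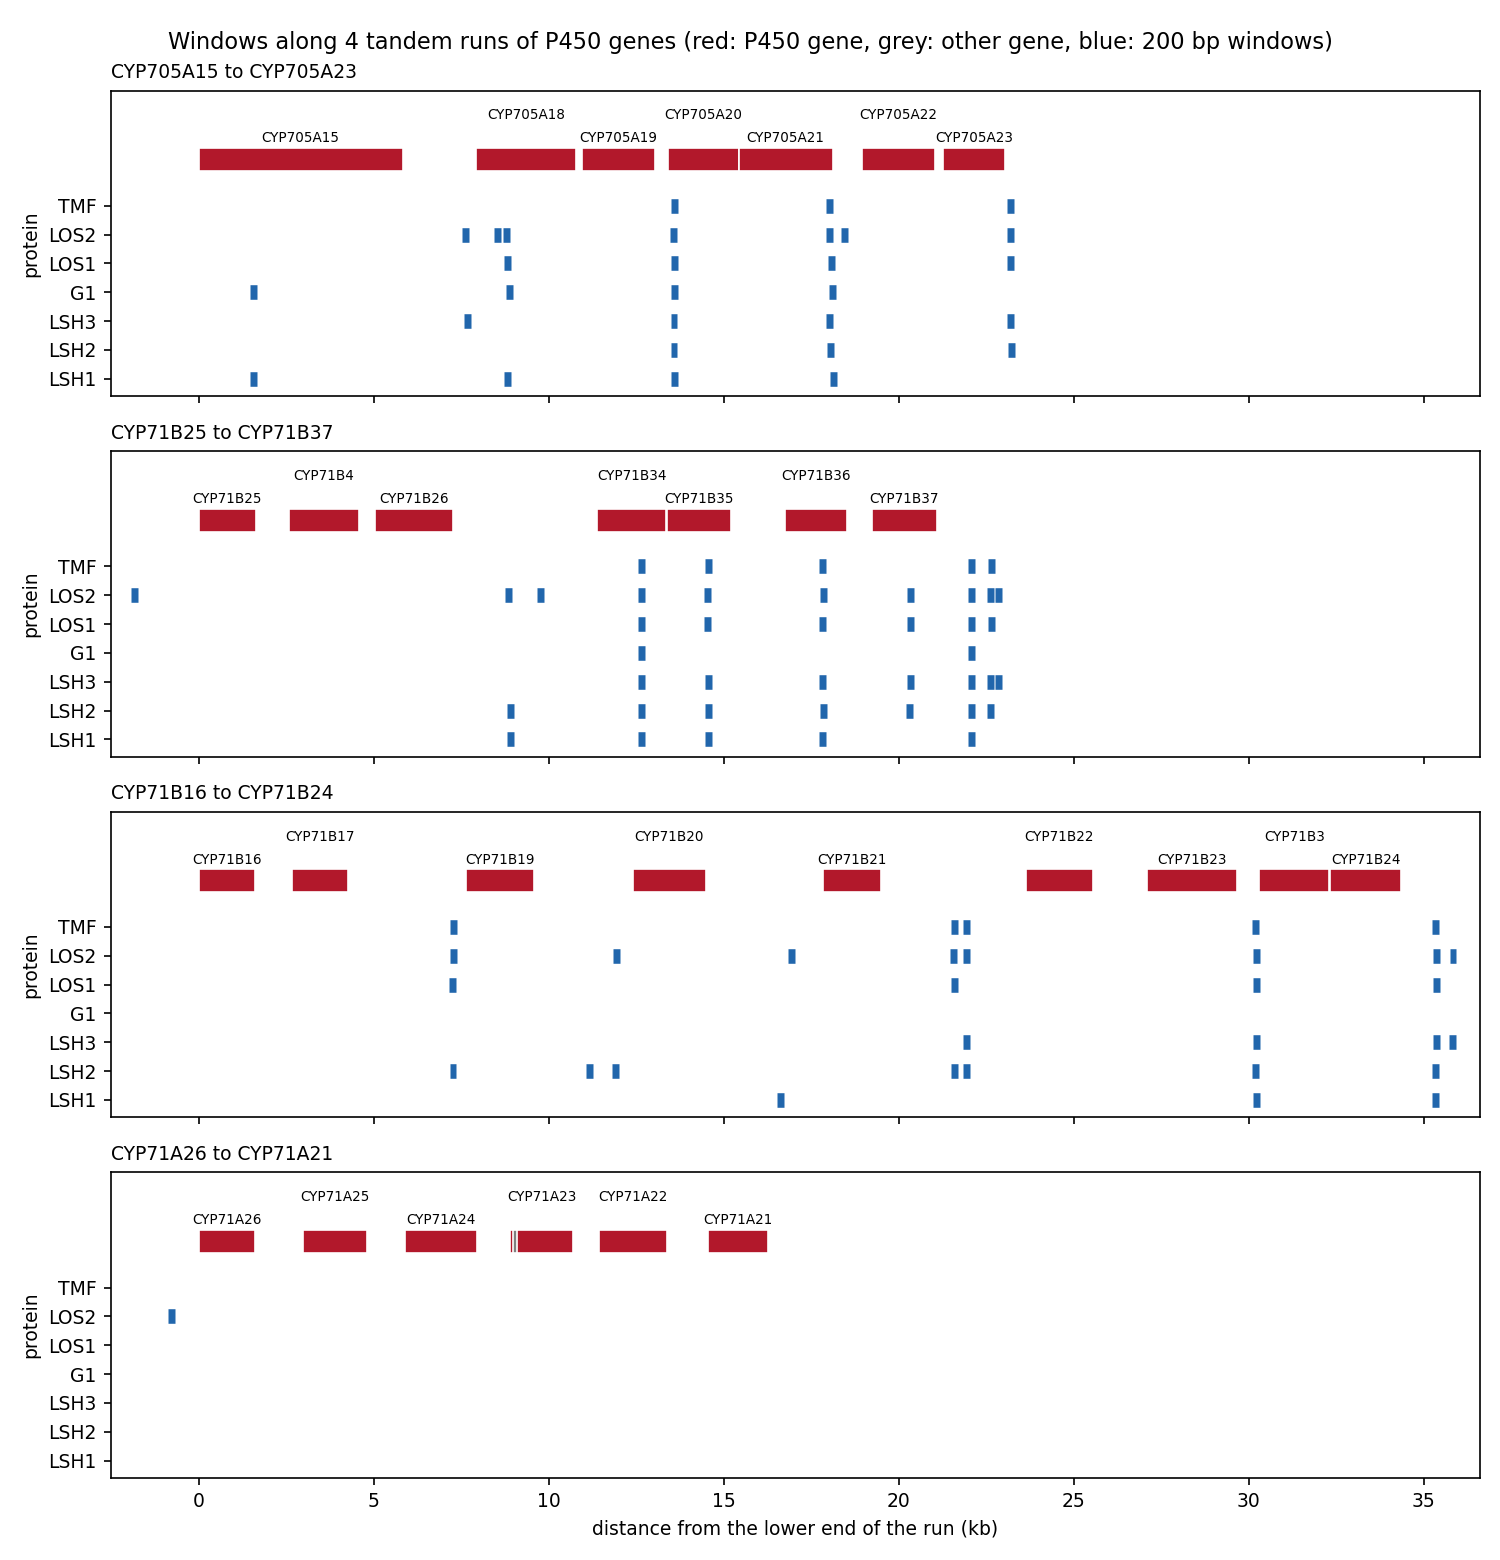
Windows of each of the 7 proteins (rows, blue bars of 200 bp) along 4 tandem runs of P450 genes on chromosome 3, against distance in kb from the lower end of the run (horizontal axis); red boxes are P450 genes and the grey line at CYP71A23 is another gene. Columns of blue bars in which proteins coincide fall both inside genes and beyond the last gene in the upper pair of runs, and only outside genes in the third; the lowest run has 1 LOS2 window.

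Few P450 genes set the Arabidopsis LSH proteins apart from the LOS proteins. Windows of LSH1, LSH2 and LSH3 without either LOS protein lay at 2 P450 genes, 0.913%, against 2.15% of all genes. They were CYP79F2, described above, and CYP78A10 (AT1G74110), a CYP78A gene whose 5 windows merged between genes on chromosome 1 at 27869702 to 27870127. Windows of both LOS proteins and no LSH protein lay at 3 P450 genes, 1.37%, against 1.05% of all genes. These were CYP96A1 (AT2G23180), CYP77A9 (AT5G04630) and CYP76C7 (AT3G61040), with 3 or 4 windows each, and CYP77A9 also had a TMF window.

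Of the 15 P450 genes listed under another symbol, 9 had a body window, 60%, near the 55.1% of all protein-coding genes. Only 1 of them had windows of all 7 proteins, and 3 had none. They are longer than the 219 genes, with a median of 3309 bp, and their body density of 0.540 windows per kb was near the 0.481 of the 219 genes. ROT3, a brassinosteroid C-23 hydroxylase like CYP90D1, had 15 windows, with all 7 proteins in its body. CPD, which acts in the same pathway, had 13 windows of LSH1, LSH2, LSH3 and LOS2. DWF4, its rate-limiting enzyme, had 1 LOS2 window, and BR6OX2 and BAS1, which make and inactivate the active hormone, had none. PAD3, the last enzyme of camalexin synthesis, had 5 flank windows of LSH2, LSH3 and LOS2. FAH1 of lignin synthesis and TT7 of flavonoid synthesis had 10 windows each, and C4H, at the entry of the phenylpropanoid pathway, had 3.

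The genes of the partner proteins also ranged widely. ATR1 and ATR2, the reductases that supply P450 enzymes with electrons, had 14 and 6 windows, both with LSH2, LSH3, LOS1, LOS2 and TMF in the body. Of the cytochrome b5 genes, CB5-E had body windows of all 7 proteins and CB5-B and CB5-C of 5 each, while CB5-A, CB5LP and CB5-D had none in the body. Together the 8 partner genes held 1.86 windows per kb of gene body, against 1.29 for all genes and 0.481 for the 219 P450 genes.

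Other large families of enzymes were compared after the values of the P450 genes were seen. Of 58 UDP-glycosyltransferase genes, which like P450 genes often lie in tandem and act in secondary metabolism, 43.1% had a body window, with 0.781 per kb, and 24.1% had no window at all. Of 47 glutathione S-transferase genes 36.2% had a body window, with 0.987 per kb, and 8.51% had none. The P450 density of 0.481 per kb lay below that of both. The P450 share with a body window, 32.4%, was near that of the glutathione S-transferase genes. The P450 share with no window, 21.9%, lay between the 2 families. Their median lengths were 1842.5 and 1381 bp, against 2054 bp for P450 genes, and lengths were not matched.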

How the data were processed

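The deposited files give, per the files' contents, a chromosome, start and end for each window, with no score, count or p-value. Per the series' design text the authors kept only peaks found in all 3 replicates. The submitters' processing notes name MACS2, Bowtie2 and SAMtools. Their versions, the peak thresholds and the build were not given in the sources used here. Read depth is unknown. The RefSeq gene table of assembly TAIR10.1 served for gene names, lengths and for assigning windows to genes; window coordinates are counted from 1. Groups came from sample titles.

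Window centres were counted per gene. Length-standardised shares used 100 shorter and 100 longer non-P450 genes per member. Regions merged windows overlapping by 1 bp or more. Named genes were those with most regions of all 7 lists, most or fewest proteins per group, LSH or LOS windows only, most windows of a protein, or great length without a window. Runs, families, comparison genes and other genes named outside this rule were picked after their values were seen. The members and lists were chosen with earlier results of these data known. Planned promoter sequences, motif counts, 5' and 3' flanks and paralog identities were not run, because no sequence or strand was used here. Counting was tested on simulated data. Alternatives covered the flank, overlap, nearest gene, tandem runs, other symbols, length bins and leaving out lists. Scripts ran on scipy 1.17.1, pandas 2.3.3, numpy 2.4.6 and Python 3.11.15.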

Additional observations from a re-analysis of the deposited data

How the results depend on the processing

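Of 111 alternative values 78 were counted as unmoved and 33 as moved. For most of them the margin was wide, a factor of 1.5 either way from the reported value. LOS2, for example, counted as unmoved at 47.5% with each window given to its nearest gene, against 70.8% as reported. The share of P450 genes with a window lay below that of genes of like length in 63 of 63 combinations of protein and setting, the share with all 7 below it in 16 of 16 settings and the share with none above it in 16 of 16. In gene bodies alone the shares were 13.2% for LSH1, 16.0% for LSH2, 12.8% for LSH3, 8.22% for G1, 11.9% for LOS1, 25.1% for LOS2, 10.05% for TMF, 3.20% for all 7 and 67.6% for none. With a flank of 500 bp they were 20.1%, 27.4%, 22.4%, 10.5%, 20.1%, 42.9%, 18.7%, 5.94% and 48.9% in the same order. A flank of 1000 bp gave 30.1% for LSH3, 10.05% for all 7 and 36.99% for none, and one of 3000 bp 13.2% for none. With each window given only to its nearest gene the shares were 21.5% for LSH1, 32.4% for LSH2, 26.0% for LSH3, 12.8% for G1, 22.8% for LOS1, 22.8% for TMF, 7.76% for all 7 and 46.1% for none. Narrower reach lowers these shares by construction. Without the list of G1, 26.9% had all of the other 6, and without LOS2 33.3% had none. Counted as regions, 26.4% lay in gene bodies. The share with any body window, whose alternatives were chosen after seeing the data, ran from 24.7% without LOS2 to 36.1% with any overlap, below genes of like length in 13 of 13 settings. No paired analysis was possible because each protein has 1 consensus list. Read depth and replicate spread are unknown.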

Other observations

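Grouped by P450 clan, a broader division by descent applied after the values were seen, body densities were low throughout. They were 0.497 windows per kb for the 142 genes of the CYP71 clan, 0.534 for 18 genes of the CYP72 clan, 0.369 for 20 genes of the CYP85 clan and 0.343 for 31 genes of the CYP86 clan. The 8 genes of clans with 1 family each, which include the sterol genes CYP51G1 and CYP710A1 and the carotene hydroxylase CYP97A3, held 0.877 per kb, against 1.29 for all protein-coding genes. In body density, transcription factor families lay between P450 genes and all genes, with 0.948 per kb in 67 WRKY genes, 0.995 in 115 MYB genes and 0.913 in 81 NAC genes. Their median lengths were 2006, 1763 and 1921 bp, and lengths were not matched. A body window occurred in 56.7% of WRKY genes, above the 55.1% of all genes, and in 45.2% of MYB and 46.9% of NAC genes.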
